A study of Mus musculus with 12 samples.

Results

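Genes of neural progenitors and neurons were followed in cardiac precursors grown from mouse embryonic stem cells. The set was a list of 37 gene symbols. The rule used no measured value, but the symbols were chosen with earlier results of these data known, so the choice was not blind. All 37 were found among the 35856 rows of the table, 18 of them transcription factors and 19 structural and other products of progenitors and neurons. The cells were C57BL/6 in every group and carried Tir1, the plant receptor that lets auxin mark a tagged protein for degradation. Each of 3 lines carried an auxin-inducible degron (AID) on a different subunit of Polycomb repressive complex 2 (PRC2): SUZ12-AID, MTF2-AID or AID-JARID2. Each line gave 2 libraries of untreated cells and 2 of cells kept with 50 µM indole-3-acetic acid, the auxin, so there were 6 groups and 12 libraries. All groups went through 48 h as embryoid bodies, 43 h of reaggregation with VEGF, Activin A and BMP4, and 32 h as a monolayer, and the time of auxin addition was not given in the sources used here. No untagged line with auxin was analysed here, and the labels name 1 tagged line for each subunit, so effects of auxin, of the line and of losing the subunit cannot be told apart.

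Neural progenitors are held in a dividing state by SOXB1 factors such as Sox1, Sox2 and Sox3, by ZIC zinc-finger factors and by the Notch targets Hes3 and Hes5. Proneural basic helix-loop-helix factors, Neurog1, Neurog2 and Neurod1 among them, start neuronal differentiation, after which tubulins, neurofilaments, growth-cone proteins and synaptic proteins accumulate. Several of these genes are not limited to the neural lineage: Sox3, Zic2, Zic5 and Nes are also transcribed in the epiblast, the pluripotent layer from which neural plate and mesoderm arise. PRC2 places methyl groups on histone H3 and is known to keep many developmental regulators silent outside their lineage. SUZ12 belongs to its core, and MTF2 and JARID2 each join a separate version of it.

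Values are transcript levels in TPM, in which reads are scaled for transcript length and for the size of the library. Reads recovered from the steps of the values numbered 10138920 to 17173072 per library. The median absolute log2 difference between the replicates of a group was 0.0884 to 0.195, widest in untreated SUZ12-AID. Every group had n = 2 libraries, numbered as replicates in the labels without a statement that they were separate cultures, so p values measure the spread between these libraries. The degron acts on protein, so the transcripts of the tagged genes do not check its loss. Their means ± SD went from 119.9 ± 9.62 to 108 ± 2.07 TPM for Suz12 in SUZ12-AID, from 22.1 ± 0.451 to 25.3 ± 0.910 TPM for Mtf2 in MTF2-AID and from 44.4 ± 1.30 to 109 ± 6.85 TPM for Jarid2 in AID-JARID2, and of these only Jarid2 passed the test (adjusted p = 2.17e-05). The labelled cell type was checked against 12 markers of cardiac precursors, whose summed level was 2629 and 2944 TPM in untreated SUZ12-AID, 1719 and 1731 TPM in untreated MTF2-AID and 2701 and 2784 TPM in untreated AID-JARID2. In the auxin libraries of AID-JARID2 it was 418 and 489.9 TPM, and Tbx5 was at or under 0.712 TPM in all 12 libraries. Hand1 alone made up most of the sum in untreated SUZ12-AID and untreated AID-JARID2, so the sum there largely follows that gene.

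With auxin most of the neural genes tested rose in AID-JARID2, many rose in SUZ12-AID and none passed the test in MTF2-AID. In AID-JARID2 18 of the 26 members tested rose and 3 fell, in a comparison in which 19.5% of all 15661 genes tested rose and 17% fell. In SUZ12-AID 13 rose and 0 fell, against 15.1% and 4.05% of all genes. At an unadjusted p under 0.05 the counts were 16 and 0, against 3593 and 1269 of all 15661 genes. With limma voom 15 rose and 0 fell, and no share over all genes is given here for that fit. In that line 9 rose where each line had its own variance weight, and 3 with its 4 libraries alone. Fewer of all genes passed in both of these fits as well. In MTF2-AID 0 rose and 0 fell with limma, against 0.0447% and 0.0192%, and limma voom on the recovered reads also called 0 and 0. At an unadjusted p under 0.05 the counts there were 2 higher and 4 lower, against 665 and 823 of all 15661 genes. The median log2 fold change of the 26 was 0.94 in AID-JARID2, 0.60 in SUZ12-AID and -0.04 in MTF2-AID, where the medians of all genes tested were 0.01, 0.06 and 0.01. The other 11 members, 10 transcription factors and Dcx, did not reach 1 TPM in 2 libraries and were not tested, so the 26 are the better transcribed part of the list and not a sample of it. Syt4, 1 of the 18, passed this filter through the auxin libraries of AID-JARID2 alone, so it had to be high there and adds no support to the count. Map2 and Snap25, also among the 18, reached 1 TPM in 3 libraries each. Without the auxin libraries of AID-JARID2 they would not have passed, so they add no support either. A fold change is the difference of mean log2(TPM + 1), and p values are from limma, two-sided and Benjamini-Hochberg adjusted over all genes tested, with a threshold of 0.05. In bulk RNA a change in the number of cells that express a gene and a change in RNA per cell cannot be told apart.

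**Figure D1:**
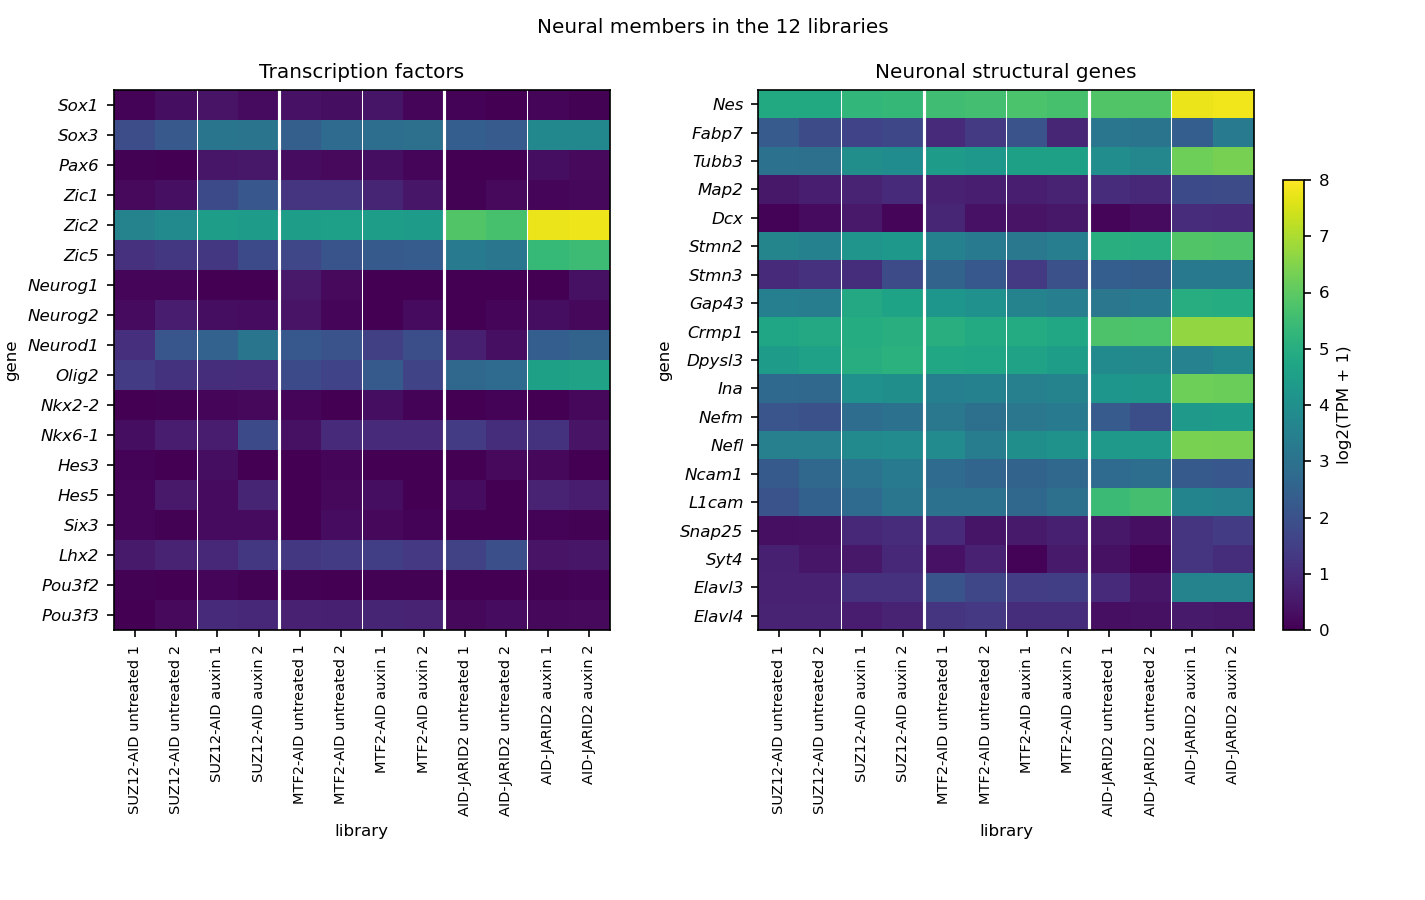
Level of each of the 37 members, as log2(TPM + 1) on the colour scale from 0 to 8, in the 12 libraries (columns, replicates 1 and 2 of each group), with transcription factors on the left and structural genes on the right. The auxin libraries of AID-JARID2 hold the brightest cells, Zic2 and Nes, while Sox1, Pax6, Six3 and Pou3f2 stay dark in all 12.

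RefSeq promoters, 250 bases before to 50 after the start of the transcript on GRCm38.p6, were matched by symbol for 26 of the 37 members, too few for a statement on the promoters of the whole list. They are shown for 4 members that stand for the patterns described next: a factor and 2 structural genes that rose in AID-JARID2 and the adhesion gene that fell. Capitals mark CG dinucleotides, since regions rich in them are where PRC2 is known to gather; each is written 5′ to 3′ on the strand of the gene.
Zic5 (chr14:122465609-122465908, minus strand): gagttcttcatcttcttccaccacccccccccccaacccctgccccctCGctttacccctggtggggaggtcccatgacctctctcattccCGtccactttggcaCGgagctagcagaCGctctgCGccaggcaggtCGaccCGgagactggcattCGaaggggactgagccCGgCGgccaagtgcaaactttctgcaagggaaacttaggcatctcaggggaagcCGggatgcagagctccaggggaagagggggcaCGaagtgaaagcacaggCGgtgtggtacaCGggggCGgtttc
Elavl3 (chr9:22051974-22052273, minus strand): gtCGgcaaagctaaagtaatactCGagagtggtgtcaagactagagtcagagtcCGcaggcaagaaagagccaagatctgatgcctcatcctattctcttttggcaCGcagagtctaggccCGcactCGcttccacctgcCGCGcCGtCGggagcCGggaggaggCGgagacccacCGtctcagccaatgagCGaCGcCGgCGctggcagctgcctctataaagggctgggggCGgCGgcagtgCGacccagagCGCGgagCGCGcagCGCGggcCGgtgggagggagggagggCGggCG
Ina (chr19:47014431-47014730, plus strand): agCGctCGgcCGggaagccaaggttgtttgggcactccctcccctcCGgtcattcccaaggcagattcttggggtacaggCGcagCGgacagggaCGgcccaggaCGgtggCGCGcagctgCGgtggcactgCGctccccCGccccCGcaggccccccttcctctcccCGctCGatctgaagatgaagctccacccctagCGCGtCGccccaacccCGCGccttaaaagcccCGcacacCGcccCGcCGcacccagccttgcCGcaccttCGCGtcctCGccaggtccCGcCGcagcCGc
L1cam (chrX:73880741-73881040, minus strand): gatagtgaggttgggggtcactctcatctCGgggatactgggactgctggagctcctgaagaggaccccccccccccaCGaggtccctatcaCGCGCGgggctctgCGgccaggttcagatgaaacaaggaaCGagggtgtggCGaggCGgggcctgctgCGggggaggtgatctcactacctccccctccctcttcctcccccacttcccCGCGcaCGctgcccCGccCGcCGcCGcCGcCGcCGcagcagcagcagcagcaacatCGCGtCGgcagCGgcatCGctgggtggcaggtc
The window of Zic5 held 15 CG dinucleotides, that of Elavl3 29, that of Ina 32 and that of L1cam 25. Among 27025 genes with a promoter of this length, 35.2%, 12.7%, 9.24% and 18.4% held at least as many, so L1cam, which fell, lay between genes that rose. Unlike the other windows, that of L1cam lies at an internal start, within the annotated gene body (73853778 to 73896105). Its count may not describe the outermost promoter of the gene. The median was 7 over all 27025 and 20 over the 11166 of them that were among the genes tested here, so Zic5 lay above the first and below the second. No binding or histone data were used, and the counts describe the letters only.

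Among the transcription factors tested, 5 of 8 rose and Lhx2 fell in AID-JARID2, and 4 of 8 rose in SUZ12-AID, with median log2 fold changes of 1.61 and 0.76. The shares over all genes were 19.5% higher and 17% lower in AID-JARID2, and 15.1% and 4.05% in SUZ12-AID. Zic2 (mm10, chromosome 14, 122475435 to 122479852, plus strand), a zinc-finger factor of neural plate and epiblast, was the most abundant factor in every library. Zic2 stood at 11.1 and 12.8 TPM without and 20.7 and 20.3 TPM with auxin in SUZ12-AID, 20.7 and 21.7 and then 21.1 and 20.5 in MTF2-AID, and 56.0 and 49.9 and then 216 and 219 in AID-JARID2. It rose in AID-JARID2 (log2 fold change 2.02, SE 0.0849, adjusted p = 8.25e-08), a 4.11-fold ratio of mean TPM. The rise in SUZ12-AID was smaller (log2 fold change 0.74, SE 0.0849, adjusted p = 3.98e-04), and in MTF2-AID the log2 fold change was -0.03 with a 95% interval of -0.22 to 0.16. Zic5 (chromosome 14, 122456795 to 122465677, minus strand) lies 9757 bases from Zic2 and is read in the opposite direction. Zic5 stood at 1.20 and 1.44 TPM without and 1.45 and 2.46 TPM with auxin in SUZ12-AID, 2.24 and 3.20 and then 3.80 and 4.06 in MTF2-AID, and 8.87 and 7.76 and then 39.7 and 44.2 in AID-JARID2. It rose with its neighbour in AID-JARID2 (log2 fold change 2.21, SE 0.187, adjusted p = 1.10e-05). Its values in SUZ12-AID (log2 fold change 0.33) and MTF2-AID (0.42) did not pass the test, with adjusted p = 0.271 and 0.525.

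Zic1 (chromosome 9, 91358058 to 91365810, minus strand), a ZIC factor of dorsal neural tube, behaved differently from Zic2 and Zic5. Zic1 was at 0.143 and 0.246 TPM without and 2.51 and 3.50 TPM with auxin in SUZ12-AID, 1.33 and 1.31 and then 0.773 and 0.407 in MTF2-AID, and 0.0340 and 0.152 and then 0.0940 and 0.135 in AID-JARID2. It rose in SUZ12-AID alone among the lines (log2 fold change 1.74, SE 0.195, adjusted p = 3.56e-04), where both auxin libraries lay above both untreated ones. The difference of its auxin effect was past the test between AID-JARID2 and SUZ12-AID (-1.71, adjusted p = 0.00161) and between MTF2-AID and SUZ12-AID (-2.29, adjusted p = 0.00108). The gene overlaps Zic4 on the other strand, and whether the counting used the strand is not given in the sources used here; Zic4 was at or under 0.109 TPM in all 12 libraries. Sox3 (chromosome X, 60891366 to 60893430, minus strand), a SOXB1 factor on the X chromosome, rose in both of the lines that responded. Sox3 stood at 2.68 and 3.75 TPM without and 7.63 and 7.52 TPM with auxin in SUZ12-AID, 4.39 and 5.92 and then 6.46 and 6.69 in MTF2-AID, and 4.20 and 3.87 and then 12.2 and 12.2 in AID-JARID2. The log2 fold change was 1.39 in AID-JARID2 (SE 0.157, adjusted p = 7.78e-05) and 1.04 in SUZ12-AID (adjusted p = 0.00163). These effects did not differ from each other past the test (0.36, 95% interval -0.14 to 0.85).

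Olig2 (chromosome 16, 91225457 to 91228677, plus strand), which specifies motor neuron and oligodendrocyte progenitors, rose in AID-JARID2. Olig2 stood at 1.61 and 1.27 TPM without and 1.05 and 1.02 TPM with auxin in SUZ12-AID, 2.48 and 2.07 and then 3.77 and 2.15 in MTF2-AID, and 5.37 and 6.02 and then 22.1 and 23.4 in AID-JARID2. Its log2 fold change there was 1.83 (SE 0.192, adjusted p = 4.83e-05), against -0.26 in SUZ12-AID and 0.25 in MTF2-AID, neither past the test; with quantile normalization the fall in SUZ12-AID passed (-0.66, adjusted p = 0.0391). Neurod1 (chromosome 2, 79452521 to 79456751, minus strand), the proneural factor with the highest level of the 3 on the list, varied more between replicates. Neurod1 was at 1.14 and 3.41 TPM without and 4.67 and 7.67 TPM with auxin in SUZ12-AID, 3.64 and 3.17 and then 1.84 and 2.77 in MTF2-AID, and 0.618 and 0.260 and then 4.20 and 4.90 in AID-JARID2. It rose in AID-JARID2 (log2 fold change 1.96, SE 0.328, adjusted p = 0.00107) from a level in untreated cells below that of the other lines. It also rose in SUZ12-AID (log2 fold change 1.19, SE 0.328, adjusted p = 0.0300), but this did not pass on leaving out untreated replicate 1 (adjusted p = 0.135) or auxin replicate 2 (0.213), and with the 4 libraries of the line alone (0.224). Lhx2 (chromosome 2, 38339281 to 38369733, plus strand), a LIM-homeobox factor of forebrain and eye, was the factor that fell. Lhx2 stood at 0.491 and 0.693 TPM without and 0.863 and 1.45 TPM with auxin in SUZ12-AID, 1.48 and 1.61 and then 1.78 and 1.52 in MTF2-AID, and 1.94 and 2.84 and then 0.348 and 0.385 in AID-JARID2. The fall in AID-JARID2 had a log2 fold change of -1.30 (SE 0.198, adjusted p = 5.80e-04), and the auxin effect there differed from that in SUZ12-AID by -1.73 (adjusted p = 0.00162).

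Nkx6-1, a factor of ventral spinal cord, was tested but passed in no line. Its libraries ranged from 0.224 to 2.49 TPM, and the highest, auxin replicate 2 of SUZ12-AID, stood apart from auxin replicate 1 at 0.568 TPM. Without auxin replicate 1 the auxin effect in that line passed (adjusted p = 0.0367), against adjusted p = 0.204 with it.

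The 10 transcription factors that were not tested include the regulators by which neural tissue is usually recognised. Sox1, the earliest neural SOXB1 factor, reached 0.379 TPM at most, with 41 reads over all 12 libraries. Pax6, a paired-box factor of forebrain, eye and spinal cord, reached 0.426 TPM, and its values in SUZ12-AID were 0.0284 and 0 TPM untreated and 0.396 and 0.426 TPM with auxin. In AID-JARID2 Pax6 was listed at 0 in both untreated libraries and stood at 0.224 and 0.160 TPM with auxin. The proneural genes Neurog1 and Neurog2 had maxima of 0.452 and 0.559 TPM and 9 and 28 reads in all. The Notch-responsive repressors Hes3 and Hes5 had maxima of 0.228 and 0.789 TPM. Six3, a homeobox factor of the anterior forebrain, and Nkx2-2, of the ventral neural tube, had maxima of 0.190 and 0.237 TPM. Of the neural POU factors, Pou3f2 had a maximum of 0.0819 TPM, and Pou3f3 was at 0 and 0.152 TPM untreated and 0.950 and 0.881 TPM with auxin in SUZ12-AID. These levels rest on 0 to 17 reads a library, and changes among them were not tested.

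**Figure D2:**
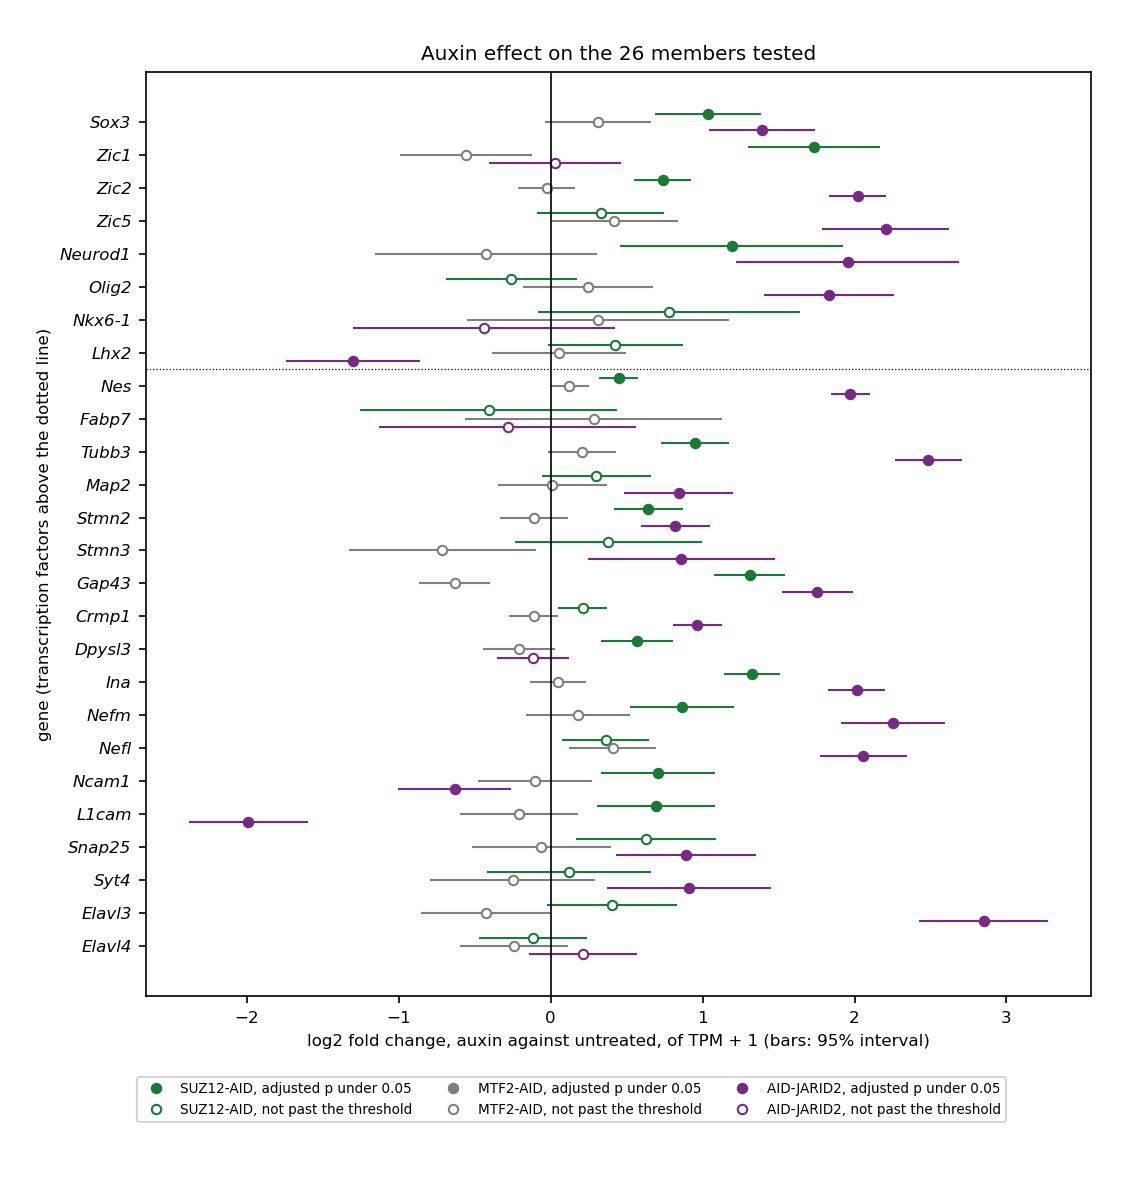
Auxin effect on each of the 26 members tested, as log2 fold change of TPM + 1 on the x axis with its 95% interval, for SUZ12-AID (green), MTF2-AID (grey) and AID-JARID2 (purple), each from 2 against 2 libraries; filled points have an adjusted p under 0.05. The purple points reach from L1cam at -1.99 to Elavl3 at 2.85, and all 26 grey points are open.

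Of the structural genes, 13 of 18 tested rose and 2 fell in AID-JARID2, and 9 of 18 rose in SUZ12-AID, with median log2 fold changes of 0.90 and 0.51. Over all genes 19.5% rose and 17% fell in AID-JARID2, and 15.1% and 4.05% in SUZ12-AID. Map2, Snap25 and Syt4, which are among the 13, passed the filter only with the auxin libraries of AID-JARID2. Nes (chromosome 3, 87971078 to 87980451, plus strand) encodes nestin, the intermediate filament of progenitors, and had the highest level of the 19 in all 12 libraries. Nes stood at 27.9 and 28.0 TPM without and 38.1 and 38.9 TPM with auxin in SUZ12-AID, 45.6 and 47.7 and then 52.0 and 49.6 in MTF2-AID, and 55.5 and 55.7 and then 217 and 225 in AID-JARID2. Both auxin libraries of AID-JARID2 lay far above the other 10, a rise of 3.98-fold in the mean (log2 fold change 1.97, SE 0.0575, adjusted p = 7.16e-09). The rise in SUZ12-AID was 1.38-fold (log2 fold change 0.45, adjusted p = 6.87e-04). Fabp7, the lipid-binding protein of radial glia, passed the test in no line. Fabp7 was at 3.90 and 2.64 TPM without and 2.02 and 2.36 TPM with auxin in SUZ12-AID, 0.992 and 1.57 and then 3.16 and 0.824 in MTF2-AID, and 7.83 and 7.37 and then 4.19 and 8.62 in AID-JARID2. The auxin replicates of AID-JARID2 lay on both sides of its untreated ones.

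The tubulin and intermediate filament genes of neurons rose together in AID-JARID2. Tubb3 (chromosome 8, 123411424 to 123422015, plus strand), the neuronal beta-tubulin, rose 5.94-fold there and 2.07-fold in SUZ12-AID. Tubb3 stood at 6.90 and 6.74 TPM without and 14.5 and 13.7 TPM with auxin in SUZ12-AID, 20.2 and 18.4 and then 22.3 and 22.4 in MTF2-AID, and 14.2 and 11.9 and then 74.2 and 80.9 in AID-JARID2. The log2 fold changes were 2.49 (SE 0.0999, adjusted p = 5.98e-08) and 0.95 (adjusted p = 2.65e-04). Ina (chromosome 19, 47014698 to 47025327, plus strand) encodes alpha-internexin, a filament of young neurons. Ina stood at 5.59 and 5.32 TPM without and 15.4 and 15.0 TPM with auxin in SUZ12-AID, 9.98 and 10.6 and then 10.3 and 11.0 in MTF2-AID, and 17.5 and 17.7 and then 74.6 and 73.4 in AID-JARID2. It rose in AID-JARID2 (log2 fold change 2.01, adjusted p = 7.00e-08) and in SUZ12-AID (log2 fold change 1.33, adjusted p = 3.09e-05), with no overlap between auxin and untreated libraries in either. The neurofilament genes Nefm (chromosome 14, 68082590 to 68124846, minus strand) and Nefl (chromosome 14, 68083863 to 68089095, plus strand) are neighbours on opposite strands whose annotated bodies overlap, so that their reads could be told apart only if the counting used the strand. Nefm stood at 3.34 and 2.92 TPM without and 6.20 and 6.83 TPM with auxin in SUZ12-AID, 8.27 and 6.68 and then 8.06 and 9.08 in MTF2-AID, and 3.87 and 2.81 and then 19.0 and 20.1 in AID-JARID2. Nefl stood at 10.1 and 10.2 TPM without and 13.0 and 13.7 TPM with auxin in SUZ12-AID, 13.4 and 9.55 and then 14.8 and 15.9 in MTF2-AID, and 18.8 and 19.0 and then 83.3 and 80.5 in AID-JARID2. Both rose in AID-JARID2, Nefm with a log2 fold change of 2.25 (adjusted p = 2.22e-06) and Nefl with 2.06 (adjusted p = 1.22e-06). In SUZ12-AID Nefm rose by 0.86 (adjusted p = 0.00369), while Nefl, at 0.36, did not pass (adjusted p = 0.0790), although it did without either untreated library of MTF2-AID (0.0179 and 0.0173). Map2, a dendritic microtubule protein, was scarce throughout. Map2 was at 0.431 and 0.580 TPM without and 0.747 and 0.968 TPM with auxin in SUZ12-AID, 0.665 and 0.604 and then 0.578 and 0.720 in MTF2-AID, and 1.02 and 0.915 and then 2.45 and 2.60 in AID-JARID2. It rose in AID-JARID2 (log2 fold change 0.84, adjusted p = 0.00244), the line through which it passed the filter on low values.

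Genes of the growth cone and of microtubule turnover made up the next group. Stmn2 (chromosome 3, 8509360 to 8561606, plus strand), a stathmin that destabilises microtubules in growing axons, rose in both lines. Stmn2 stood at 11.3 and 10.5 TPM without and 17.0 and 18.2 TPM with auxin in SUZ12-AID, 10.4 and 9.06 and then 8.27 and 9.68 in MTF2-AID, and 31.1 and 30.5 and then 55.4 and 54.9 in AID-JARID2. Its log2 fold change was 0.82 in AID-JARID2 (adjusted p = 1.51e-04) and 0.64 in SUZ12-AID (adjusted p = 0.00206), and their difference of 0.18 had a 95% interval of -0.14 to 0.50. Stmn3, its relative, was lower and less even. Stmn3 stood at 0.951 and 1.23 TPM without and 1.05 and 2.58 TPM with auxin in SUZ12-AID, 4.88 and 3.59 and then 1.54 and 2.95 in MTF2-AID, and 4.24 and 4.18 and then 8.44 and 8.47 in AID-JARID2. The call in AID-JARID2 (log2 fold change 0.86, adjusted p = 0.0333) was lost without any of the 4 libraries of that line, with adjusted p = 0.112 to 0.121. Gap43 (chromosome 16, 42248442 to 42340651, minus strand), a membrane protein of growth cones, rose in both lines as well. Gap43 stood at 10.00 and 9.45 TPM without and 27.4 and 23.9 TPM with auxin in SUZ12-AID, 17.5 and 15.6 and then 10.9 and 9.75 in MTF2-AID, and 8.08 and 8.57 and then 30.9 and 30.1 in AID-JARID2. The log2 fold change was 1.76 in AID-JARID2 (adjusted p = 8.73e-07) and 1.31 in SUZ12-AID (adjusted p = 7.39e-05). In MTF2-AID both auxin libraries lay below both untreated ones (log2 fold change -0.63, adjusted p = 0.0831), the member nearest to the threshold in that line. Crmp1 (chromosome 5, 37241940 to 37292133, plus strand) and Dpysl3 are collapsin response mediators, which link guidance signals to the cytoskeleton. Crmp1 stood at 25.9 and 27.1 TPM without and 30.1 and 31.4 TPM with auxin in SUZ12-AID, 32.0 and 28.8 and then 29.1 and 27.0 in MTF2-AID, and 53.0 and 51.7 and then 104 and 102 in AID-JARID2. Dpysl3 stood at 19.9 and 22.7 TPM without and 30.4 and 33.8 TPM with auxin in SUZ12-AID, 26.7 and 25.2 and then 23.3 and 21.5 in MTF2-AID, and 12.8 and 12.6 and then 10.7 and 12.7 in AID-JARID2. Crmp1 rose in AID-JARID2 (log2 fold change 0.97, adjusted p = 5.14e-06), and its 0.21 in SUZ12-AID missed the threshold (adjusted p = 0.0763). Dpysl3 did the reverse, with a rise in SUZ12-AID (log2 fold change 0.57, adjusted p = 0.00467) and -0.12 in AID-JARID2 (adjusted p = 0.437). For Dpysl3 the difference between these effects was itself past the test (-0.69, adjusted p = 0.00833).

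Both adhesion genes fell in AID-JARID2 and rose in SUZ12-AID. Neither rise passed with a variance weight per line (adjusted p = 0.0923 for L1cam and 0.0753 for Ncam1). With the libraries of SUZ12-AID alone they did not pass either (0.214 and 0.189), nor did that of L1cam with quantile normalization (0.0822). L1cam (chromosome X, 73853778 to 73896105, minus strand), an axonal cell adhesion molecule, was high in untreated cells of AID-JARID2 and low elsewhere. L1cam stood at 3.16 and 4.65 TPM without and 5.95 and 7.83 TPM with auxin in SUZ12-AID, 6.95 and 7.16 and then 5.33 and 6.69 in MTF2-AID, and 42.6 and 48.8 and then 11.2 and 10.3 in AID-JARID2. It fell in AID-JARID2 to 10.8 ± 0.592 TPM, a 4.25-fold lower mean (log2 fold change -1.99, SE 0.174, adjusted p = 1.38e-05), which was still above the 8 libraries of the other lines. In SUZ12-AID it rose (log2 fold change 0.69, adjusted p = 0.0204), which did not pass on leaving out untreated replicate 1 (adjusted p = 0.0880) or auxin replicate 2 (0.160). Ncam1 (chromosome 9, 49502136 to 49798925, minus strand), the neural cell adhesion molecule, showed the same signs. Ncam1 stood at 3.84 and 5.44 TPM without and 7.18 and 9.14 TPM with auxin in SUZ12-AID, 5.91 and 5.13 and then 4.79 and 5.34 in MTF2-AID, and 5.88 and 6.45 and then 3.78 and 3.46 in AID-JARID2. It fell in AID-JARID2 (log2 fold change -0.63, adjusted p = 0.0143) and rose in SUZ12-AID (log2 fold change 0.71, adjusted p = 0.0160). The fall did not pass without untreated replicate 2 or auxin replicate 2 of AID-JARID2, with adjusted p up to 0.0860, and the rise without untreated replicate 1 or auxin replicate 2 of SUZ12-AID, with adjusted p of 0.0673 and 0.129. The difference between the auxin effects of these lines was past the test for both genes, -2.68 for L1cam (adjusted p = 4.90e-05) and -1.34 for Ncam1 (adjusted p = 0.00273).

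Elavl3 (chromosome 9, 22015005 to 22052023, minus strand), which stabilises transcripts of differentiating neurons, had the highest log2 fold change of the list. Elavl3 stood at 0.672 and 0.677 TPM without and 1.23 and 1.21 TPM with auxin in SUZ12-AID, 3.21 and 2.29 and then 1.74 and 1.79 in MTF2-AID, and 0.958 and 0.386 and then 10.9 and 10.9 in AID-JARID2. The auxin libraries of AID-JARID2 were alike and the other 10, at or under 3.21 TPM, did not reach them (log2 fold change 2.85, SE 0.191, adjusted p = 2.00e-06). Its relative Elavl4 ranged from 0.242 to 1.51 TPM over all libraries and passed in no line. Synaptic genes were near the lower limit of what was tested. Snap25 was at 0.257 and 0.295 TPM without and 0.913 and 1.03 TPM with auxin in SUZ12-AID, 0.959 and 0.365 and then 0.500 and 0.638 in MTF2-AID, and 0.440 and 0.247 and then 1.35 and 1.63 in AID-JARID2. Syt4 was at 0.619 and 0.394 TPM without and 0.436 and 0.860 TPM with auxin in SUZ12-AID, 0.321 and 0.672 and then 0.0557 and 0.480 in MTF2-AID, and 0.294 and 0.0550 and then 1.36 and 1.05 in AID-JARID2. Snap25, a protein of vesicle fusion, rose in AID-JARID2 (log2 fold change 0.89, adjusted p = 0.00698), the line without whose auxin libraries it would not have been tested. The synaptotagmin Syt4 was tested only because it reached 1 TPM in the auxin libraries of AID-JARID2, so its call there (log2 fold change 0.91, adjusted p = 0.0144) follows in part from the filter. Snap25 libraries of SUZ12-AID did not overlap either, but the fold change there of 0.63 missed the threshold (adjusted p = 0.0602), which it passed with limma voom (0.0233). Each of the calls in AID-JARID2 was lost without untreated replicate 2 of AID-JARID2, and without auxin replicate 2 for Snap25 or auxin replicate 1 for Syt4, with adjusted p up to 0.0546 and 0.0984. Dcx, doublecortin of migrating neurons, was not tested: its libraries were at 0.105 and 0.187 TPM untreated and 1.00 and 0.962 TPM with auxin in AID-JARID2 and at or under 0.820 TPM in the other lines.

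**Figure D3:**
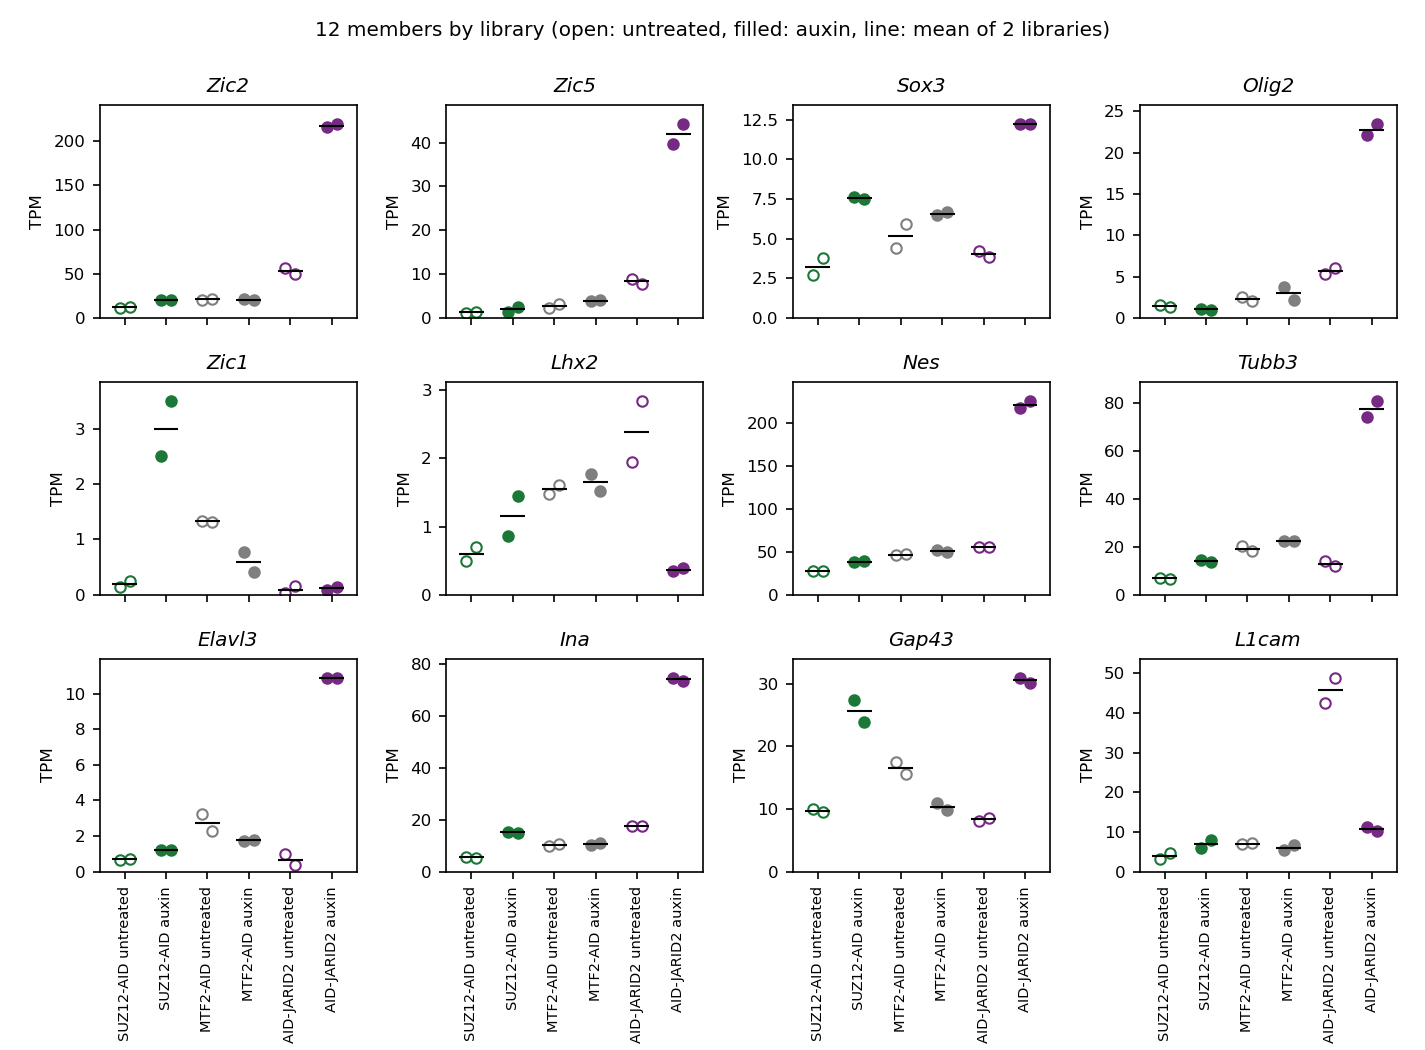
TPM (y axis, linear from 0) of 12 members in each library, with open points for untreated and filled points for auxin libraries, 2 per group, and a line at their mean. Zic2, Zic5, Olig2, Nes, Tubb3, Elavl3 and Ina are highest in the auxin libraries of AID-JARID2, Zic1 in those of SUZ12-AID, and Lhx2 and L1cam in untreated AID-JARID2.

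The auxin effects were compared between lines directly, to see which members responded differently. Between AID-JARID2 and SUZ12-AID 15 of 26 members differed: the effect was higher in AID-JARID2 for 10 and lower for 5, where it was higher for 9% and lower for 15% of all genes. The 10 were Zic2, Zic5, Olig2, Nes, Tubb3, Crmp1, Ina, Nefm, Nefl and Elavl3, and Elavl3 differed most (2.44 on the log2 scale, 95% interval 1.84 to 3.05). The 5 were Zic1, Lhx2, Dpysl3, Ncam1 and L1cam, led by L1cam (-2.68, 95% interval -3.23 to -2.13). Between AID-JARID2 and MTF2-AID 20 differed, 18 of them higher in AID-JARID2, with Lhx2 and L1cam lower, against 12.6% and 11.7% of all genes. Map2, Snap25 and Syt4, which are among these 18, passed the filter only with the auxin libraries of AID-JARID2 and add no support to the count. Between MTF2-AID and SUZ12-AID 9 differed, all with the lower effect in MTF2-AID, where 2% of all genes had a higher and 9.11% a lower one: Zic1, Zic2, Nes, Tubb3, Stmn2, Gap43, Dpysl3, Ina and L1cam. Each pair of these comparisons shares the libraries of a line. For the 26 members in MTF2-AID the log2 fold changes ran from -0.71 (Stmn3) to 0.42 (Zic5), and 22 of the 26 intervals lay wholly within a 2-fold change either way on the log2(TPM + 1) scale, which understates changes of members near or under 1 TPM such as Zic1 (1.32 ± 0.0156 to 0.590 ± 0.259 TPM).

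The untreated lines did not start from the same neural levels. Untreated AID-JARID2 differed from untreated SUZ12-AID in 14 of 26 members, where 15.2% of all genes were higher and 12.4% lower: 12 were higher, with L1cam (3.26), Zic2 (2.06) and Zic5 (2.01) first, and Neurod1 (-1.11) and Dpysl3 (-0.70) were lower. Untreated MTF2-AID was above untreated SUZ12-AID in 10 members and below it in 0 with limma. Of all genes 5.5% were higher and 3.15% lower. At an unadjusted p under 0.05 the members were 16 and 1, against 2573 and 1350 of all 15661 genes. With limma voom 12 were called in either direction, and no share over all genes is given here for that fit. Without untreated replicate 1 of MTF2-AID 6 members differed. With all libraries in the fit, the highest of the 10 were Tubb3 (1.37), Stmn3 (1.32) and Elavl3 (1.15). Untreated AID-JARID2 and MTF2-AID differed in 18 members, 10 higher and 8 lower in AID-JARID2, where 15.8% of all genes were higher and 17.6% lower. Untreated SUZ12-AID had the lowest summed levels. The 18 factors summed to 19.1 and 25.7 TPM there and to 42.1 and 49.2 TPM with auxin, beside 38.6 and 41.5 TPM in untreated MTF2-AID. The 19 structural genes summed to 136 and 139.7 TPM and with auxin to 213 and 222 TPM, beside 195 and 210.1 TPM in untreated MTF2-AID. In AID-JARID2 the factors summed to 72.4 and 79.1 TPM untreated and 298 and 306 TPM with auxin, and the structural genes to 278 and 279 TPM and 714 and 728 TPM.

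Other neural genes were set beside the members, in lists drawn up from known biology but also with earlier results of these data known. Of 39 further neural transcription factors, 11 rose and 4 fell of 22 tested in AID-JARID2 and 10 rose and 2 fell of 22 tested in SUZ12-AID, with median log2 fold changes of 0.31 and 0.57. In these comparisons 19.5% of all genes rose and 17% fell in AID-JARID2, and 15.1% and 4.05% in SUZ12-AID. Sox2, the SOXB1 factor shared by epiblast and neural progenitors, rose from 5.07 ± 0.876 to 98.8 ± 0.907 TPM in AID-JARID2, Pou3f1 from 20.6 ± 0.921 to 169.9 ± 11.2 TPM and Otx2 from 9.83 ± 0.00839 to 63.4 ± 2.93 TPM; Isl1, Gbx2 and Irx3 fell there. In SUZ12-AID Nkx2-9 (5.34 ± 0.230 to 15.4 ± 6.13 TPM) and Sox2 (3.13 ± 0.716 to 8.78 ± 0.742 TPM) rose, while Irx3 (77.1 ± 0.958 to 31.2 ± 7.45 TPM) and Sox11 (52.9 ± 3.11 to 41.8 ± 0.000967 TPM) fell. Of 42 further structural genes, 19 rose and 9 fell of 37 tested in AID-JARID2 and 9 rose and 4 fell of 37 tested in SUZ12-AID, with medians of 0.44 and 0.24. Those counts are 51.4% and 24.3% of the structural genes tested in AID-JARID2, and 24.3% and 10.8% in SUZ12-AID. Stmn4, a further stathmin, rose from 0.789 ± 0.247 to 14.1 ± 0.833 TPM, the G-protein subunit Gng3 from 31.9 ± 0.560 to 229.5 ± 3.11 TPM and the neuropeptide precursor Vgf from 1.22 ± 0.406 to 13.1 ± 0.680 TPM in AID-JARID2. Vim (945 ± 7.67 to 449 ± 8.50 TPM), a filament of progenitors and mesenchyme, Cdh2 (65.7 ± 1.27 to 35.8 ± 0.215 TPM) and Dpysl4 (6.96 ± 0.628 to 4.50 ± 0.147 TPM) fell there. In SUZ12-AID Prph (34.7 ± 4.82 to 77.8 ± 0.191 TPM), Syn1 (3.64 ± 0.379 to 6.74 ± 0.570 TPM) and Celf5 (4.56 ± 0.503 to 7.73 ± 1.81 TPM) led the rises, and Msi1 (51.4 ± 2.94 to 38.9 ± 2.29 TPM), Stmn1 (464 ± 50.6 to 375 ± 12.1 TPM) and Dpysl2 (48.3 ± 0.458 to 39.5 ± 3.20 TPM) fell. In MTF2-AID limma called 0 genes of these lists. At an unadjusted p under 0.05 there were 2 higher and 4 lower among the 22 factors tested. Among the 37 structural genes tested there were 0 and 3. Of all 15661 genes tested 665 were higher and 823 lower at that threshold.

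Notch signalling, which restrains neuronal differentiation, was covered by 25 genes with the proneural factors. In AID-JARID2 8 rose and 6 fell of 18 tested (median 0.14), against 19.5% and 17% of all genes: Jag2 (8.70 ± 0.0331 to 33.6 ± 1.72 TPM), Id2 (55.7 ± 5.35 to 170.0 ± 20.0 TPM) and Id1 (311 ± 18.8 to 596 ± 38.9 TPM) rose most, and the targets Hey2 (9.87 ± 1.48 to 2.14 ± 0.0439 TPM), Hes1 (130.1 ± 7.22 to 49.9 ± 2.21 TPM) and Hey1 (20.0 ± 0.961 to 9.17 ± 1.24 TPM) fell. In SUZ12-AID 2 rose and 1 fell of 18 tested, against 15.1% and 4.05% of all genes, with rises of Jag2 (21.0 ± 1.28 to 41.4 ± 6.69 TPM) and Id3 and a fall of Lfng. REST, which silences neuronal genes in other tissues, acts with 7 further proteins measured here. Rest itself was at 31.2 and 35.5 TPM untreated and 48.2 and 53.4 TPM with auxin in AID-JARID2 (log2 fold change 0.59, adjusted p = 0.0602). Its cofactor Rcor2 fell in AID-JARID2 (181 ± 6.49 to 126 ± 4.08 TPM) and in SUZ12-AID (139.5 ± 1.06 to 97.7 ± 3.26 TPM), and Hdac1 rose in AID-JARID2 (247 ± 3.85 to 272 ± 3.35 TPM).

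Markers of other cell types changed too, with pluripotency and cardiac precursor markers going opposite ways in AID-JARID2. Of all genes tested, 19.5% rose and 17% fell in AID-JARID2, and 15.1% rose and 4.05% fell in SUZ12-AID. Of 12 pluripotency and epiblast markers, 11 rose and 1 fell of 12 tested in AID-JARID2, and their summed level went from 925 and 934 TPM to 4129 and 4185 TPM. Pou5f1 (326 ± 12.9 to 1600 ± 0.899 TPM) and Utf1 (30.7 ± 1.37 to 819.9 ± 4.78 TPM) rose, and Klf4 fell. In SUZ12-AID 9 of 12 rose and the sum went from 257 and 264 to 382 and 458 TPM, and in MTF2-AID from 298 and 317 to 318 and 322 TPM. Sox2 and Otx2 are in this list and in that of further neural factors, and Foxd3 is in this list and in that of neural crest markers. Isl1 is both a cardiac precursor marker and a further neural factor here. Of the cardiac precursor markers, 10 of 11 tested fell in AID-JARID2, Hand1 (1858 ± 36.9 to 98.3 ± 11.7 TPM) among them, and 5 rose and 1 fell of 11 tested in SUZ12-AID. In SUZ12-AID their summed level nevertheless went from 2629 and 2944 TPM to 1540 and 1625 TPM, with Hand1, the member that fell, at 2421 ± 185 to 1033 ± 61.4 TPM. The 9 neural crest markers summed to 91.1 and 94.9 TPM untreated and 77.6 and 78.9 TPM with auxin in AID-JARID2, and to 131 and 156 TPM, then 148 and 148 TPM, in SUZ12-AID; of these Tfap2b was at 0 in all 12 libraries and Sox10 at or under 1.49 TPM. The 9 glial markers summed to 12.4 and 13.7 TPM untreated and 30.4 and 33.3 TPM with auxin in AID-JARID2, and to 14.0 and 15.1 TPM, then 27.1 and 28.3 TPM, in SUZ12-AID, with S100b at 0 in all 12 libraries and Gfap at or under 0.247 TPM. Of 8 neural crest markers tested, 2 rose and 3 fell in AID-JARID2, and 2 rose and 0 fell in SUZ12-AID. Of 4 glial markers tested, 2 rose and 0 fell in AID-JARID2, and 3 rose and 0 fell in SUZ12-AID. The part of these cell types in the changes of the neural genes was not tested.

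**Figure D4:**
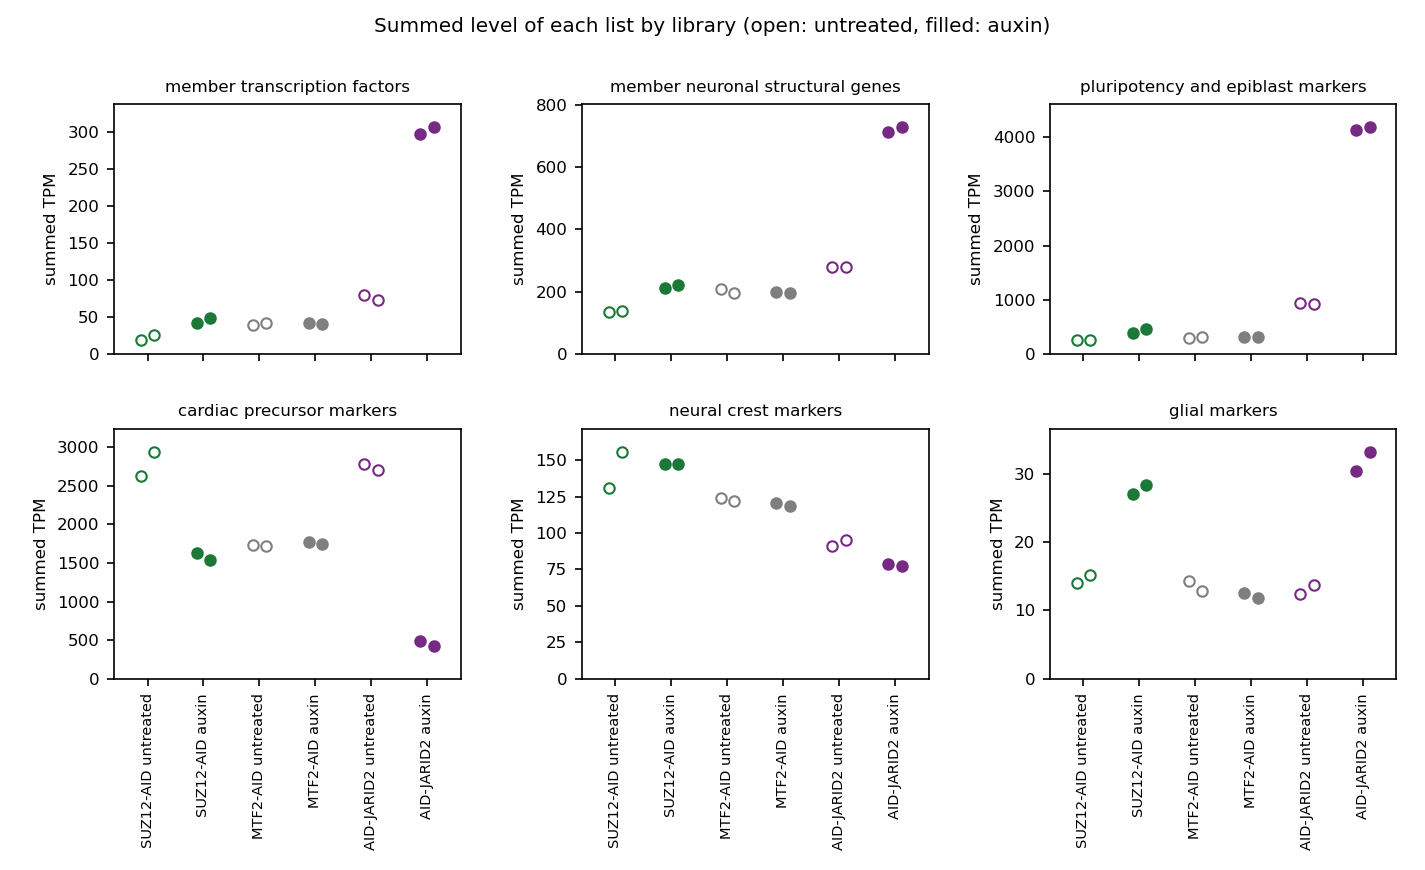
Summed TPM (y axis, linear from 0) of 6 gene lists in each library, with open points for untreated and filled points for auxin libraries, 2 per group. Both member groups and the epiblast markers are highest in the auxin libraries of AID-JARID2, where the cardiac precursor markers are lowest.

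The calls in SUZ12-AID depended more on the model than those in AID-JARID2. The 3 members that rose in SUZ12-AID with the libraries of the line alone were Zic1, Gap43 and Ina, while in AID-JARID2 18 rose and 3 fell both in such a fit and with the variance weights. Another scaling moved the split over all genes in SUZ12-AID from 2362 higher and 635 lower to 2103 and 1548 (median of ratios) or 1605 and 1418 (quantile), and the median of all genes from 0.06 to -0.02 or -0.04, while 13 and 11 members rose and 0 and 1 fell.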

How the data were processed

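RNA of 12 libraries (6 groups of 2) was analysed from a table of TPM values that the authors deposited, 35856 rows by gene name. Reads were aligned with STAR 2.6.1d to mm10, per the submitters' processing notes; no source used here gives the counter, annotation or strand setting. All values above 0 lay within 0.01 of a whole number of reads, which gave the depths. Of the rows, 27 had names that look like dates, and those with the 2 duplicated names among them were left out. log2(TPM + 1) of the 15661 genes that reached 1 TPM in 2 or more libraries was fitted with limma 3.58.1 (R 4.3.3), 1 term per group over all 12 libraries, with a variance trend (6 residual and 3.9 prior degrees of freedom) and Benjamini-Hochberg adjustment. The fit was tested on simulated data. Alternatives (21) changed the pseudocount, filter, scaling, weights, libraries or block; limma voom on the recovered reads was added after seeing the data.

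The members and gene lists were chosen with earlier results of these data known. Members called in a line or at 5 TPM or more in a group are given in full; of other lists, up to 3 genes called in each direction per line, by log2 fold change, with at least 5 TPM in the higher group. Gene positions are from GENCODE vM21 (mm10) and promoters from RefSeq.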

Additional observations from a re-analysis of the deposited data

Results flagged for a closer look

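Every result here stands out because a test of the difference between 2 lines in their response to auxin passed the threshold (limma, adjusted over all genes tested), and values are differences of log2 fold changes. For AID-JARID2 minus SUZ12-AID, the response was higher among the transcription factors for Olig2 (2.09), Zic5 (1.88) and Zic2 (1.28). Among the structural genes it was higher for Elavl3 (2.44), Nefl (1.70), Tubb3 (1.54), Nes (1.52), Nefm (1.39), Crmp1 (0.76) and Ina (0.69). It was lower for the factors Lhx2 (-1.73) and Zic1 (-1.71), and for the structural genes L1cam (-2.68), Ncam1 (-1.34) and Dpysl3 (-0.69).

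For AID-JARID2 minus MTF2-AID, the response was higher for the factors Neurod1 (2.38), Zic2 (2.05), Zic5 (1.79), Olig2 (1.58) and Sox3 (1.08). Of the structural genes it was higher for Elavl3 (3.28), Gap43 (2.39), Tubb3 (2.28), Nefm (2.07), Ina (1.97), Nes (1.85), Nefl (1.65), Stmn3 (1.57), Syt4 (1.16), Crmp1 (1.08), Snap25 (0.95), Stmn2 (0.93) and Map2 (0.83). It was lower for L1cam (-1.78) and Lhx2 (-1.36). Syt4, Snap25 and Map2 were tested only with the auxin libraries of AID-JARID2, which favours a higher response there, so they add no support.

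For MTF2-AID minus SUZ12-AID, the response was lower for the factors Zic1 (-2.29) and Zic2 (-0.76), and for the structural genes Gap43 (-1.94), Ina (-1.28), L1cam (-0.90), Dpysl3 (-0.78), Stmn2 (-0.75), Tubb3 (-0.74) and Nes (-0.33). No group had enough libraries to look for a library apart from the rest of its group.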

How the results depend on the processing

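Under 22 alternatives no log2 fold change of a member that had been called changed sign. With only the libraries of the line, 3 members rose with auxin in SUZ12-AID in place of 13, a fit with fewer libraries. With quantile normalization 1 member (Olig2) fell there, and with a variance weight per line 1 member (Gap43) fell in MTF2-AID; the cause was not tested. Leaving out each library in turn gave 10 to 15 members higher and 0 to 0 lower in SUZ12-AID, 0 to 0 higher and 0 to 0 lower in MTF2-AID, and 15 to 18 higher and 2 to 3 lower in AID-JARID2. A group left with 1 library was assumed to vary like the others. The auxin effect then differed in 15 to 17 members between AID-JARID2 and SUZ12-AID, in 7 to 12 between MTF2-AID and SUZ12-AID and in 16 to 20 between AID-JARID2 and MTF2-AID. Untreated lines differed in 13 to 15, in 6 to 15 and in 17 to 18 members, in the order AID-JARID2 minus SUZ12-AID, MTF2-AID minus SUZ12-AID and AID-JARID2 minus MTF2-AID.

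The deviations of samples of the same number were at most weakly correlated (15 correlations from -0.0534 to 0.0958). With 2 libraries per group this cannot exclude that the numbers name shared cultures or batches. With a replicate block 13 members rose and 0 fell in SUZ12-AID, 0 rose and 0 fell in MTF2-AID, and 18 rose and 3 fell in AID-JARID2; the auxin effect differed in 16, 10 and 20 members and untreated lines in 14, 11 and 18, in the same order of comparisons as above.

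Counts over all genes moved further than those over the members. In SUZ12-AID 2362 genes rose and 635 fell, against 979 and 215 with a variance weight per line, 129 and 27 with the libraries of the line alone, 1548 lower with median-of-ratios scaling and 1418 lower with quantile normalization. Without auxin replicate 2 of SUZ12-AID the counts were 1109 and 266, and without untreated replicate 1 the count lower was 1427. In AID-JARID2 3053 genes rose, against 1969 without auxin replicate 2. In MTF2-AID the counts of 7 and 3 became 55 and 109 with a variance weight per line, 12 and 18 with a pseudocount of 5, and 0 and 0 with the libraries of the line alone. The 11 members that did not reach the filter rest on few reads, and changes among them were not tested.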

Other observations

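Zic2 and Nes were the largest parts of the summed levels. Zic2 made up 57.8% and 49.8% of the summed TPM of the 18 transcription factors in the untreated libraries of SUZ12-AID and 49.2% and 41.2% in its auxin libraries. In AID-JARID2 its share was 70.8% and 68.9% untreated and 72.6% and 71.6% with auxin. Nes made up 19.9% and 19.9% of the sum of the 19 structural genes in untreated AID-JARID2 and 30.4% and 30.9% with auxin. L1cam took 15.3% and 17.5% of that sum in untreated AID-JARID2 and 1.56% and 1.42% with auxin, beside 3.31% and 3.68% in untreated MTF2-AID.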
